A study of Mus musculus with 6 samples.

Results

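The Cyp3a genes of the mouse were followed in liver RNA. The gene table lists 22274 genes, and 9 of them carry a symbol made of Cyp3a and a number: Cyp3a11, Cyp3a13, Cyp3a16, Cyp3a25, Cyp3a41a, Cyp3a41b, Cyp3a44, Cyp3a57 and Cyp3a59. All 9 had enough counts to enter the test, which covered 13201 genes. Messenger RNA was sequenced from livers of C57 mice in 6 libraries. In 3 of them (Ad-Dyrk1b) the mice had been given an adenovirus that carries mouse Dyrk1b, the gene of a dual-specificity protein kinase. The other 3 (Ad-EGFP) came from mice given a control virus with the gene of a green fluorescent protein, so the animals of both groups carried a virus. The labels give no age, sex, virus dose, time after infection or promoter for the transgene. Whether each library is its own mouse is not stated either, and each p-value therefore measures the spread between these libraries, which may be technical.

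CYP3A proteins are cytochrome P450 monooxygenases of the endoplasmic reticulum that oxidise drugs, steroids and bile acids with electrons passed on by the reductase Por. In liver their transcription is driven by the xenobiotic receptors PXR (Nr1i2) and CAR (Nr1i3), which pair with RXR, together with the hepatocyte factor Hnf4a. Mouse Cyp3a11 is the main form of adult liver, Cyp3a16 is known from fetal and neonatal liver, and Cyp3a41a, Cyp3a41b and Cyp3a44 are known as female-biased genes of adult liver that follow the pattern of growth hormone release.

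The 9 genes are annotated on chromosome 5 (GENCODE M21, build GRCm38, which is mm10), each as a protein-coding gene of 13 exons. 8 of them lie within 768 kb, at chr5:145345279-146113287, in the order Cyp3a57, Cyp3a16, Cyp3a41b, Cyp3a41a, Cyp3a44, Cyp3a11, Cyp3a25 and Cyp3a59. Cyp3a13 lies 7424 kb away, at chr5:137892932-137921619. Cyp3a57 and Cyp3a59, the outermost genes of the cluster, are on the plus strand and the other 7 genes are on the minus strand. Their exons overlapped those of no other annotated gene.

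By coding sequence the genes fell into 3 groups. Cyp3a11, Cyp3a16, Cyp3a41a, Cyp3a41b and Cyp3a44 were at least 92.4% identical to each other. Cyp3a25, Cyp3a57 and Cyp3a59 were at least 93.9% identical, and Cyp3a13 was at most 76.8% identical to any other member. The closest pair was Cyp3a41a and Cyp3a41b, with 2 differences in the coding sequence (99.9% identity), followed by Cyp3a25 and Cyp3a59 with 38 differences (97.5%). The 250 bases before the annotated start repeated these groups, except that Cyp3a11 stood further from its relatives there, at 71.7% to 76.2% identity.

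The upstream sequences of 6 genes are shown because each set holds near-copies whose estimated changes in RNA differed in size. These differences were not tested, and the division of reads between Cyp3a41a and Cyp3a41b is uncertain. The sequences are the 250 bases before the start in RefSeq (GRCm38.p6), written 5′ to 3′ on the strand of the gene. Capitals mark matches, on either strand, to AGTTCA, a spelling of the nuclear receptor half-site (read here as TGAACT on the other strand). They also mark the forkhead-type motif TGTTTAC, the letters TATAAA (a spelling of the TATA box) and the CCAAT box. Other spellings of the half-site, such as AGGTCA, and of the TATA box were not searched for and are not marked. The minus-strand windows are chr5:145720137-145720386 for Cyp3a41a, chr5:145584731-145584980 for Cyp3a41b, chr5:145805875-145806124 for Cyp3a44, chr5:145469724-145469973 for Cyp3a16 and chr5:146009619-146009868 for Cyp3a25. The plus-strand window of Cyp3a59 is chr5:146079008-146079257.
Cyp3a41a: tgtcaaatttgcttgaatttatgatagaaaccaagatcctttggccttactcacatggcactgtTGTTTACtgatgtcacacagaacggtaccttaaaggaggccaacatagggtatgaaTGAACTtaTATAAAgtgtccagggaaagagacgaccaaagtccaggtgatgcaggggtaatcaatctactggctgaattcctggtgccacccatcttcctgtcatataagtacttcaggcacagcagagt
Cyp3a41b: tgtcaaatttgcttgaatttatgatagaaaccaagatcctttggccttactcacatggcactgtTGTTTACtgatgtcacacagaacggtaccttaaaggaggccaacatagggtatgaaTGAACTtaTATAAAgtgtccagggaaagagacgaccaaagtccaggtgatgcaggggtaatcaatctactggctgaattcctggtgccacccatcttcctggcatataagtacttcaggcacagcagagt
Cyp3a44: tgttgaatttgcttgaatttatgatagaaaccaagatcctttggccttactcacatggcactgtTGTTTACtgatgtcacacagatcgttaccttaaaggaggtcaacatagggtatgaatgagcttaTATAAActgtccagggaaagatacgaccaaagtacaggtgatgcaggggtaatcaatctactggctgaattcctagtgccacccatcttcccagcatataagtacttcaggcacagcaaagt
Cyp3a16: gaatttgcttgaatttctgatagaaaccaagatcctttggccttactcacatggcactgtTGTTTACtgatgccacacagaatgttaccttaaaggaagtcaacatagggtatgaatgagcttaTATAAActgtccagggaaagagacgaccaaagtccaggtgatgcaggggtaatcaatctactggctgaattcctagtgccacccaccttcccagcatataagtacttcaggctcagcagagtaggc
Cyp3a25: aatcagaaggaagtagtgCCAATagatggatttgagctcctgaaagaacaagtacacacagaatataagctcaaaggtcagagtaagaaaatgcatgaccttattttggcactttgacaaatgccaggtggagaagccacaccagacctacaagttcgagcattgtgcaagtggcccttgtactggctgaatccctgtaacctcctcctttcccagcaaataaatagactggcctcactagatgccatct
Cyp3a59: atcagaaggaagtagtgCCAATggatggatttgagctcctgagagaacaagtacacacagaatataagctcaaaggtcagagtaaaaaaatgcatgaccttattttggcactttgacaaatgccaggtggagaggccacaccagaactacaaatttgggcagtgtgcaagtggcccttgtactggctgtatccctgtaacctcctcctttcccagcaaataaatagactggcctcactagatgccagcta

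The windows of Cyp3a41a and Cyp3a41b differed by 1 substitution, T222G, counted from 1 at the 5′ end of the window, with the base of Cyp3a41a first. Cyp3a44 differed from Cyp3a41a at 14 of the 250 positions. Among them A124G lies within the AGTTCA match of Cyp3a41a and Cyp3a41b, and Cyp3a44 had no AGTTCA match there. The spelling AGGTCA, which was not searched for, stands unmarked in the printed windows of Cyp3a44, Cyp3a25 and Cyp3a59. It also stands in those of Cyp3a11 and Cyp3a57, which are not shown. A lack of AGTTCA is therefore not a lack of any half-site. Of the 9 members, 3 held AGTTCA in this window (Cyp3a11, Cyp3a41a and Cyp3a41b), against 11.9% of 27025 promoters. TGTTTAC occurred in 5 members (Cyp3a11, Cyp3a16, Cyp3a41a, Cyp3a41b and Cyp3a44), 186 to 198 bases before the start, against 3.09% of promoters. TATAAA was present in the same 5 members, against 12.97%. It lay 234 bases before the start in Cyp3a11 and 122 to 126 bases before it in the others, so its place was not shared by all. Whether any of these matches works as a TATA box was not tested, and a lack of TATAAA is not a lack of any TATA-type sequence. CCAAT was found in Cyp3a13, Cyp3a25 and Cyp3a59, against 34.5%. The STAT-type motif TTCNNNGAA was in 0 of 9 windows and in 7.18% of promoters. A match is a run of letters, not a measured binding site. The windows of the 5 members with TGTTTAC, which include the 3 with AGTTCA, are 71.7% to 99.6% identical to each other. They are therefore not independent cases, and the shares beside them are no measure of enrichment.

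Total counts were 17326516 to 20024888 per library. Dyrk1b, the transgene, stood at 62.2 to 100.7 FPKM (fragments scaled to gene length and library size) in the Ad-Dyrk1b libraries and at 3.81 to 4.97 FPKM in the controls, so each library matched its label. The leading principal component held 52.4% of the variance. Ad-Dyrk1b replicate 3 stood apart on the next component (14.2%) and had the highest summed erythroid marker level, 3812 CPM (counts scaled to a common library size), against 521 to 1112 in the other 5 libraries. Over all tested genes 972 were called higher and 635 lower in Ad-Dyrk1b (edgeR, adjusted p under 0.05), and the median log2 fold change was -0.005. With library sizes left as total counts the split was 694 higher and 1051 lower and the median was -0.09, and on log2(FPKM + 1) it was 556 and 702.

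Of the 9 Cyp3a genes 6 rose in the Ad-Dyrk1b livers: Cyp3a41b, Cyp3a16, Cyp3a57, Cyp3a44, Cyp3a41a and Cyp3a59. Among all tested genes 7.36% were called higher by the same rule. 5 members were called and higher by at least 1 log2 unit, which holds for 2.45% of tested genes. They include Cyp3a57 and Cyp3a16, whose control counts alone would not have passed the filter on low counts. With no filter Cyp3a57 and Cyp3a16 were also called (edgeR adjusted p = 0.00483 and 0.018). Among the members 0 were called lower, against 4.81% of tested genes, and 0 had a lower level at an unadjusted p under 0.05 by edgeR, DESeq2 or limma-voom. Every Ad-Dyrk1b library was above every Ad-EGFP library for 7 members, all but Cyp3a13 and Cyp3a25, which is the case for 16.8% of tested genes. DESeq2 called 7 members higher, adding Cyp3a11, against 8.93% of tested genes. The median log2 fold change of the 9 genes was 1.995. For 91 other genes with a Cyp symbol, of which 64 were tested, 24 were called higher and 2 lower, with a median of 0.35.

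**Figure D1:**
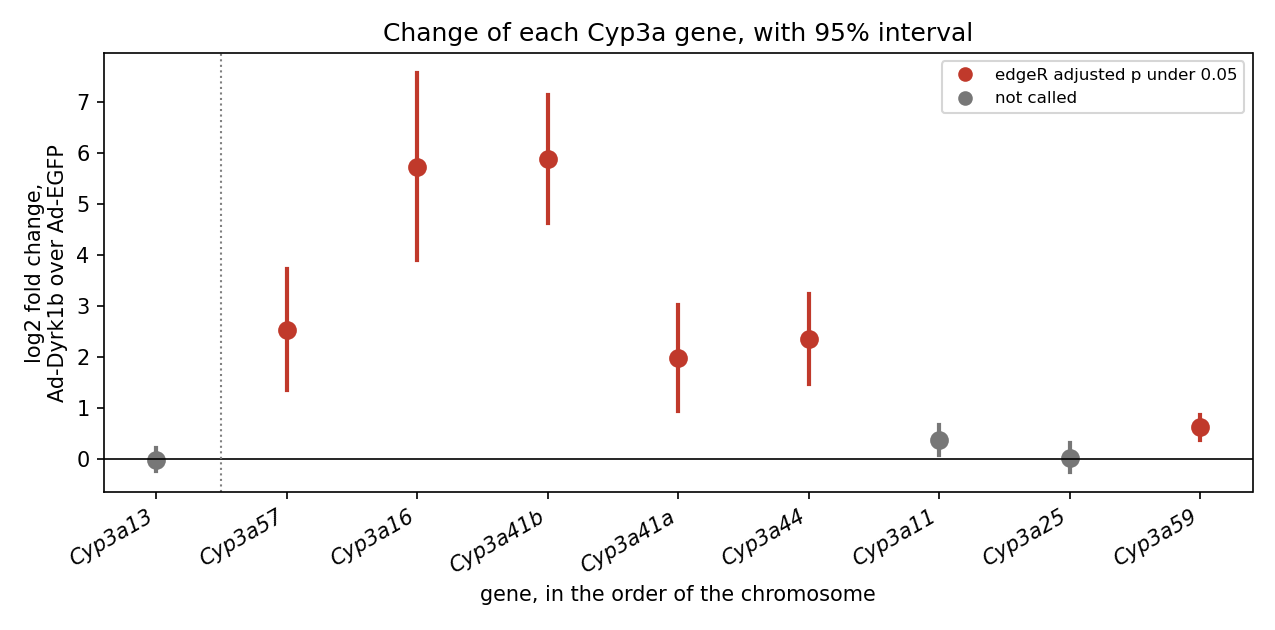
Log2 fold change of each Cyp3a gene, Ad-Dyrk1b over Ad-EGFP (3 libraries each), in the order of the chromosome; points are edgeR estimates, bars are 95% intervals, red marks an adjusted p under 0.05 and the dotted line parts the distant Cyp3a13 from the cluster. Cyp3a16 and Cyp3a41b lie at 5.74 and 5.89, while Cyp3a13 and Cyp3a25 lie at -0.01 and 0.03.

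Cyp3a16, a form known from fetal and neonatal liver, was at a trace in the controls and rose to levels that overlapped those of Cyp3a13. It stood at 61.1, 51.8 and 68.4 FPKM in Ad-Dyrk1b replicates 1 to 3 and at 2.61, 0.73 and 0.20 FPKM in Ad-EGFP replicates 1 to 3. These rest on 2020, 1793 and 2117 counts and on 81, 22 and 6 counts. The groups were far apart, and the 3 controls themselves differed 13.5-fold in normalised counts, with replicate 1 the highest. The log2 fold change was 5.74 ± 0.70 (SE; 95% interval 3.90 to 7.57; edgeR adjusted p = 0.0123), a 53.4-fold difference that ranked 4 among all tested genes. Leaving out Ad-EGFP replicate 1 gave 7.11. With each of the 6 libraries left out in turn, the edgeR adjusted p ran from 5.89e-06 to 0.0546. It passed the threshold except without replicate 2 of Ad-Dyrk1b (0.0519) and without replicate 2 of Ad-EGFP (0.0546).

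Cyp3a41b and Cyp3a41a, the near-identical female-biased copies, both rose, with estimates far apart in size. Cyp3a41b stood at 146, 144 and 126 FPKM in the Ad-Dyrk1b libraries and at 4.12, 2.31 and 0.95 FPKM in the controls. Its log2 fold change was 5.89 ± 0.50 (SE; 95% interval 4.63 to 7.15; edgeR adjusted p = 0.00229), 59.3-fold, and ranked 3 among all tested genes. Cyp3a41a was far more abundant in both groups. Its levels were 777, 905 and 830 FPKM in Ad-Dyrk1b and 338, 218 and 110 FPKM in Ad-EGFP. The log2 fold change of Cyp3a41a was 1.995 ± 0.42 (SE; 95% interval 0.95 to 3.04; edgeR adjusted p = 0.0364), 3.99-fold. In the controls both copies were highest in replicate 1 and lowest in replicate 3, while the Ad-Dyrk1b libraries lay within 1.2-fold of each other for Cyp3a41a in FPKM. Cyp3a41a missed the threshold when Ad-Dyrk1b replicate 1, 2 or 3 was left out (edgeR adjusted p = 0.11, 0.12 and 0.113), when Ad-EGFP replicate 2 was left out (0.133) and with no filter on low counts (0.0858). Over the 6 libraries left out its edgeR adjusted p ran from 0.00168 to 0.133, and that of Cyp3a41b from 6.83e-06 to 0.025.

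Because the copies share most of their sequence, the division of reads between them is uncertain. Only 9.18% of the 100-base stretches of the Cyp3a41a transcript and 11.8% of those of Cyp3a41b occur in no other annotated transcript, and 17.1% and 17.3% of the 150-base stretches. The sources used here state neither the read length nor how reads that fit both copies were counted. As counted, Cyp3a41b held 15.9%, 13.8% and 13.2% of the counts of the pair in the Ad-Dyrk1b libraries. In the controls it held 1.21% (95% Wilson interval 1.04 to 1.42), 1.04% (0.843 to 1.29) and 0.857% (0.614 to 1.2). The difference in this share within a group was small beside that between the groups. These intervals cover counting error only. Summed into 1 row, the pair rose by 2.20 on the log2 scale with an edgeR adjusted p of 0.0267, from 452 ± 241 CPM in Ad-EGFP to 2077 ± 226 in Ad-Dyrk1b (SD, n = 3).

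Cyp3a44, also introduced above as female-biased, rose from a low level. It stood at 19.7, 18.2 and 21.7 FPKM in Ad-Dyrk1b and at 6.76, 2.71 and 2.77 FPKM in Ad-EGFP, where replicate 1 was again the highest. The log2 fold change was 2.36 ± 0.37 (SE; 95% interval 1.47 to 3.24; edgeR adjusted p = 0.0107). Each leave-out of a library kept the call. By FPKM Cyp3a44 was 2.01% to 2.61% of Cyp3a41a in Ad-Dyrk1b and 1.24% to 2.51% in Ad-EGFP, ranges that overlapped. Of its 100-base stretches 94.6% are unique, and the others are shared with Cyp3a11, Cyp3a41a or a further annotated transcript, Cyp3a63-ps. All of its 150-base stretches are unique. Whether shared reads add to the counts of Cyp3a44 was not tested.

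Cyp3a57 was the least abundant member and rose as well. Its counts were 14, 23 and 35 in Ad-Dyrk1b and 3, 6 and 3 in Ad-EGFP, or 0.65 ± 0.31 and 0.11 ± 0.05 FPKM (SD, n = 3). Each control lay under the minimum count of 10, so the gene entered the test through the Ad-Dyrk1b libraries alone. The log2 fold change was 2.54 ± 0.55 (SE; 95% interval 1.35 to 3.73; edgeR adjusted p = 0.00979), and counts this low leave its size poorly fixed.

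Cyp3a59 and Cyp3a25, neighbours at the far end of the cluster on opposite strands, differed in their calls, a difference that was not itself tested. Cyp3a59 stood at 94.7, 106 and 113 FPKM in Ad-Dyrk1b and at 70.0, 76.2 and 68.8 FPKM in Ad-EGFP, with no overlap. It rose 1.55-fold, a log2 fold change of 0.63 ± 0.11 (SE; 95% interval 0.38 to 0.88; edgeR adjusted p = 0.00403). Cyp3a25 stood at 287, 301 and 288 FPKM in Ad-Dyrk1b and at 354, 282 and 273 FPKM in Ad-EGFP, so the groups overlapped. Its log2 fold change was 0.03 ± 0.13 (SE; 95% interval -0.25 to 0.32; edgeR adjusted p = 0.887). Within each library Cyp3a59 was 33.0%, 35.1% and 39.3% of Cyp3a25 by FPKM in Ad-Dyrk1b and 19.8%, 26.96% and 25.2% in Ad-EGFP. For this pair 93.95% (Cyp3a25) and 94.4% (Cyp3a59) of 100-base stretches are unique.

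Cyp3a11, the main form of adult liver, held most of the Cyp3a RNA in every library. It stood at 4647, 5343 and 4675 FPKM in Ad-Dyrk1b and at 3865, 4161 and 3958 FPKM in Ad-EGFP. The groups did not overlap. The log2 fold change was 0.38 ± 0.13 (SE; 95% interval 0.09 to 0.67), 1.30-fold, and missed the threshold (edgeR adjusted p = 0.0831), also with any library left out (0.065 to 0.259). DESeq2 called it (adjusted p = 0.011), as did the authors' deposited table (adjusted p = 0.0135). In that table the authors' adjusted p was under the threshold for 7 members, and the authors' log2 ratio for Cyp3a11 was 0.29. The size depended on the scaling. With library sizes left as total counts the log2 fold change of Cyp3a11 was 0.29 (edgeR adjusted p = 0.11). On log2(FPKM + 1) it was also 0.29 (limma adjusted p = 0.268).

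Cyp3a13, the member outside the cluster, showed no detectable difference. It stood at 58.4, 62.4 and 57.5 FPKM in Ad-Dyrk1b and at 62.0, 65.5 and 62.8 FPKM in Ad-EGFP. The log2 fold change was -0.01 ± 0.10 (SE; 95% interval -0.23 to 0.22; edgeR adjusted p = 0.974), an interval of 0.853-fold to 1.16-fold.

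**Figure D2:**
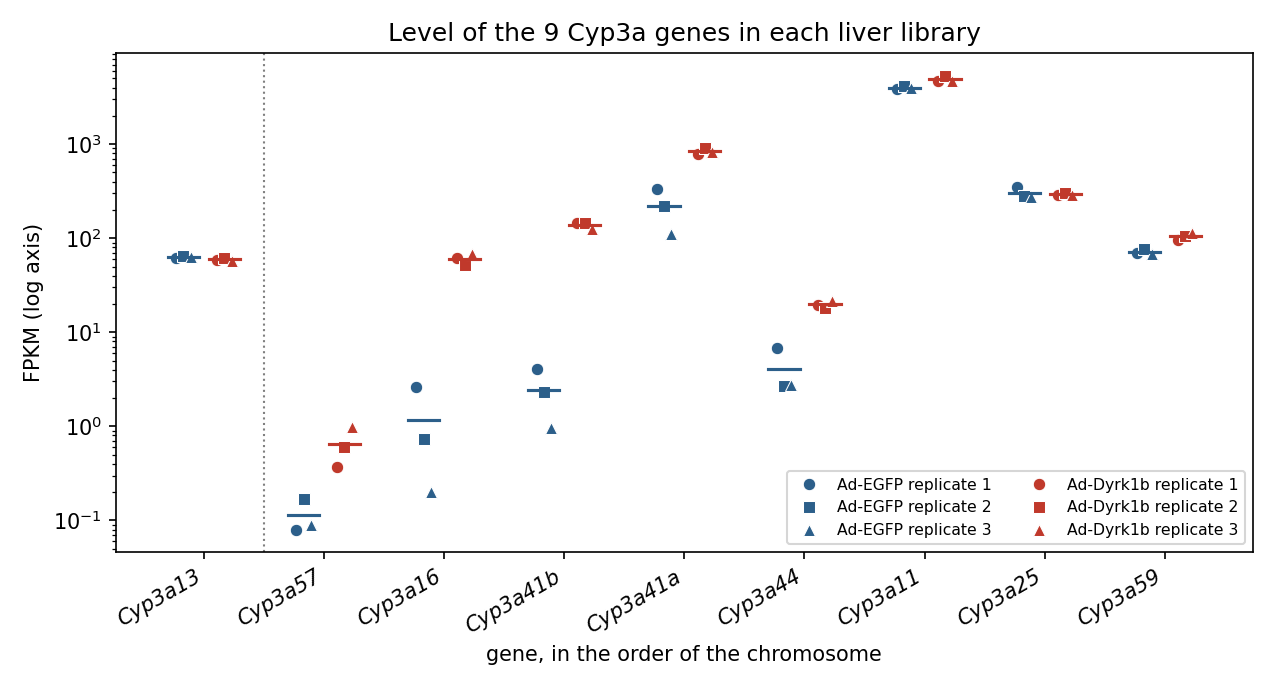
FPKM of the 9 Cyp3a genes in each of the 6 libraries on a log axis, in the order of the chromosome; each point is 1 library, bars are group means and the dotted line parts Cyp3a13 from the cluster. The control points of Cyp3a16, Cyp3a41b, Cyp3a41a and Cyp3a44 are spread out with Ad-EGFP replicate 1 on top, while their Ad-Dyrk1b points lie close together.

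The order of the levels changed between the groups. By mean FPKM the controls ran Cyp3a11 (3995 ± 151, SD, n = 3), Cyp3a25 (303 ± 44.5), Cyp3a41a (222 ± 114), Cyp3a59 (71.7 ± 3.94), Cyp3a13 (63.4 ± 1.81), Cyp3a44 (4.08 ± 2.32), Cyp3a41b (2.46 ± 1.59), Cyp3a16 (1.18 ± 1.27) and Cyp3a57. The ranges of Cyp3a25 and Cyp3a41a overlapped there, as did those of Cyp3a44 and Cyp3a41b and of Cyp3a41b and Cyp3a16. In Ad-Dyrk1b the order was Cyp3a11 (4888 ± 394), Cyp3a41a (837 ± 64.5), Cyp3a25 (292 ± 7.93), Cyp3a41b (139 ± 11.4), Cyp3a59 (104 ± 9.26), Cyp3a16 (60.4 ± 8.36), Cyp3a13 (59.4 ± 2.59), Cyp3a44 (19.9 ± 1.73) and Cyp3a57. The ranges of Cyp3a16 and Cyp3a13 were the only neighbouring pair to overlap. Cyp3a41a thus passed Cyp3a25, and Cyp3a41b passed Cyp3a59, Cyp3a13 and Cyp3a44.

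The spread between libraries also differed by member. In the controls the coefficient of variation of normalised counts was 109% for Cyp3a16, 66.8% for Cyp3a41b, 59.3% for Cyp3a44 and 53.1% for Cyp3a41a. In Ad-Dyrk1b it was 8.44% to 12.9% for the same 4 genes. The spread of 4 other members was larger in Ad-Dyrk1b than in the controls: 11.9% against 2.36% for Cyp3a11, 12.2% against 4.86% for Cyp3a59, 7.999% against 1.78% for Cyp3a13 and 49.9% against 42.4% for Cyp3a57. For Cyp3a25 it was 6.90% against 16.8%. Ad-EGFP replicate 1 was the highest control for 5 of the 9 members, against 33.9% of all tested genes and 14 of 21 genes of the female-biased list described further on.

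Summed over the 9 genes, the family took 1.39%, 1.58% and 1.41% of all counts in Ad-Dyrk1b and 1.08%, 1.11% and 1.04% in Ad-EGFP. In CPM the sums were 13620, 16930 and 14600 against 10750, 10640 and 9985, without overlap. The ratio of the group means was 1.44. Cyp3a11 made up 59.7% of the difference in this sum although its fold change was small, Cyp3a41a made up 29.1%, Cyp3a41b 6.31% and Cyp3a16 2.30%. Without Cyp3a11 the ratio was 2.36. By FPKM the share of Cyp3a11 in the family was 85.7% ± 3.19 in the controls and 76.3% ± 0.719 in Ad-Dyrk1b (SD, n = 3). That of Cyp3a41a was 4.73% ± 2.37 and 13.1% ± 0.338. Cyp3a41a amounted to 8.74%, 5.25% and 2.78% of Cyp3a11 in the controls and to 16.7%, 16.9% and 17.8% in Ad-Dyrk1b. No test was made of the sum, which is a description of the members.

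**Figure D3:**
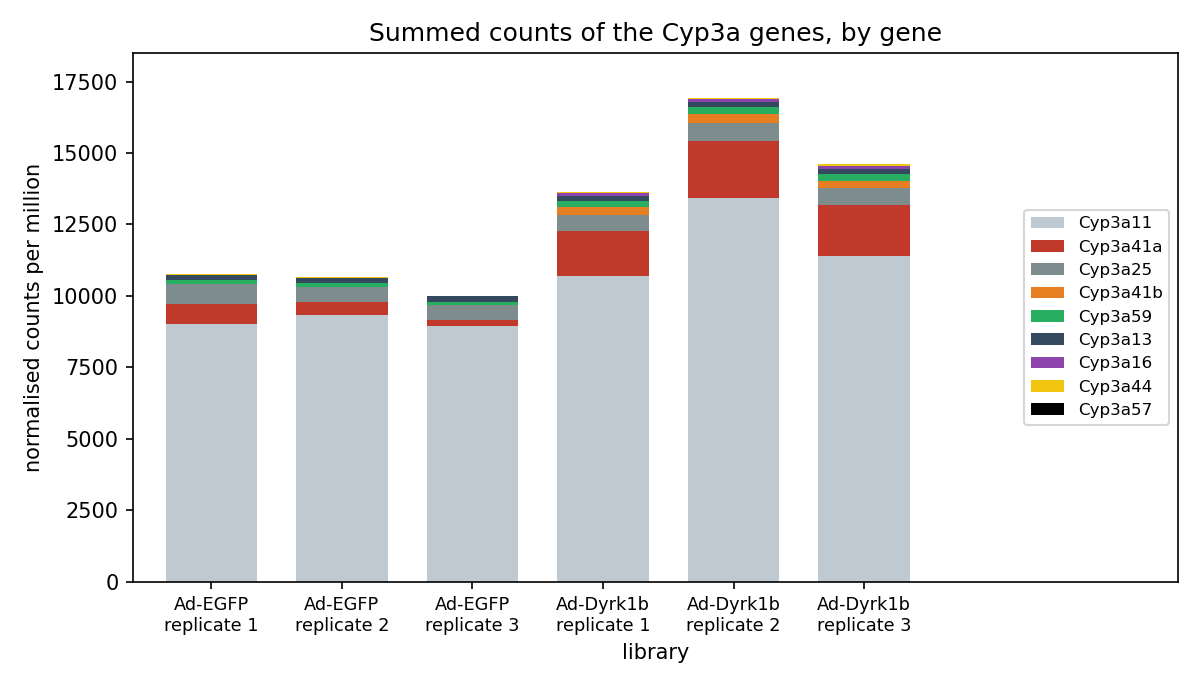
CPM of the 9 Cyp3a genes, stacked by gene, in each library; the bars start at 0. Cyp3a11 is the largest segment in all 6 bars, and the Cyp3a41a segment is larger in the 3 Ad-Dyrk1b bars.

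Some members close in sequence had fold changes of unequal size, and others had similar ones. Cyp3a11 is 95.2% identical to Cyp3a41a and 92.8% identical to Cyp3a16 in coding sequence, and the log2 fold changes were 0.38, 1.995 and 5.74. Cyp3a57 is 93.9% identical to Cyp3a25, and theirs were 2.54 and 0.03, the first resting on low counts. By contrast, Cyp3a41a is 95.8% identical to Cyp3a44, with 1.995 and 2.36. Cyp3a16 is 92.6% identical to Cyp3a41b, with 5.74 and 5.89. The differences between members were not tested. Apart from Cyp3a41a and Cyp3a41b, at least 93.95% of the 100-base stretches of each member are found in no other transcript.

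**Figure D4:**
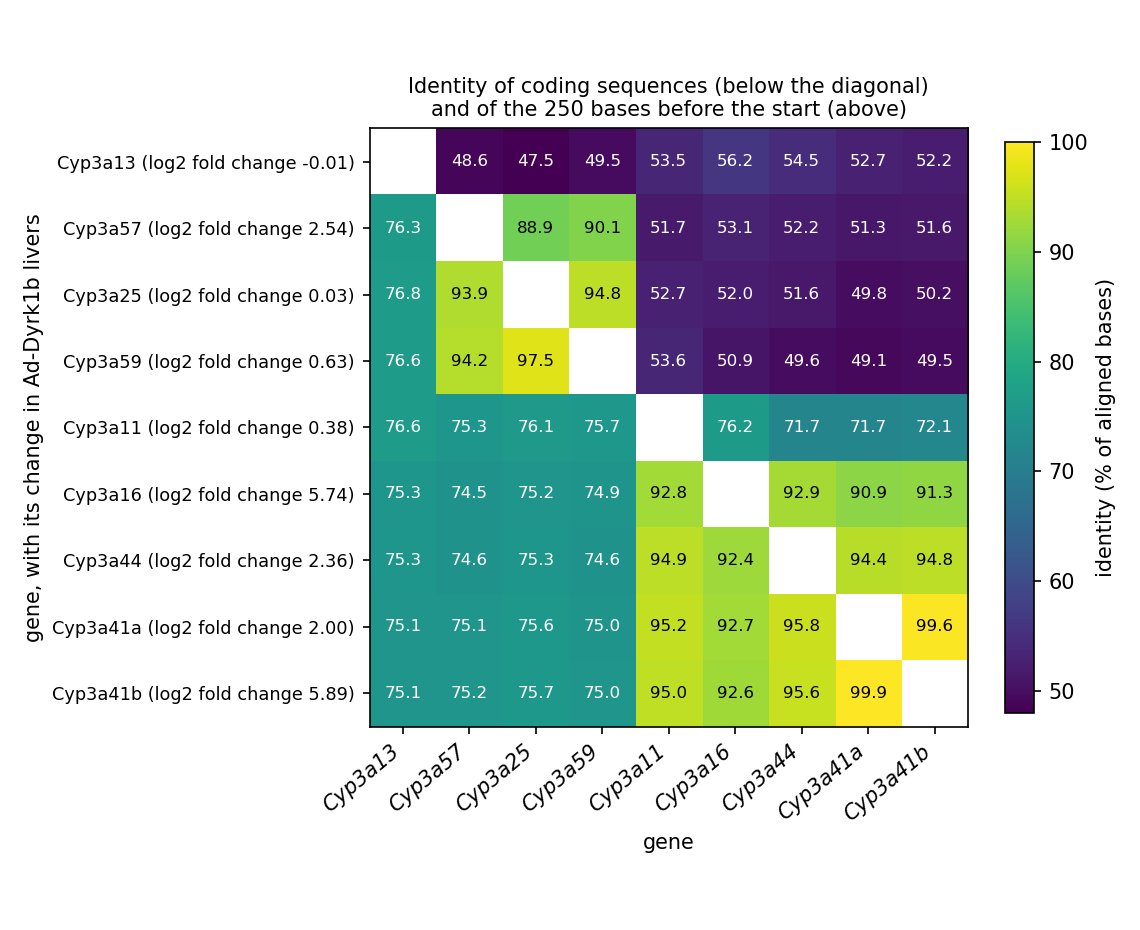
Identity in percent of aligned bases between each pair of Cyp3a genes, for coding sequences below the diagonal and for the 250 bases before the start above it; row labels give the log2 fold change. Cyp3a11 groups with Cyp3a16, Cyp3a44, Cyp3a41a and Cyp3a41b by coding sequence, and its upstream identity to them is 71.7% to 76.2%.

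The protein-coding genes on either side of the cluster had small differences. Zkscan5, Zfp655 and Zscan25 lie before it and had log2 fold changes of -0.05 ± 0.15, 0.01 ± 0.13 and -0.22 ± 0.25 (SE). Rnf6, Cdk8 and Usp12 lie after it and had -0.14 ± 0.10, 0.11 ± 0.09 and 0.20 ± 0.15. Their edgeR adjusted p ranged from 0.397 to 0.972. Another 14 annotated features lie inside the cluster and were not analysed here.

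Of 17 regulators of Cyp3a transcription, all tested, 1 was called higher and 1 lower, a share near that of all tested genes (7.36% higher and 4.81% lower). Their median log2 fold change was -0.10. Nr0b2, the corepressor SHP, rose by 0.76 ± 0.13 on the log2 scale (SE; edgeR adjusted p = 0.00335). Foxa3, a forkhead factor of hepatocytes, fell by 0.72 ± 0.14 (edgeR adjusted p = 0.00635). Nr1i2 (PXR) stood at 34.9 ± 0.895 FPKM in Ad-Dyrk1b and 38.0 ± 3.66 in Ad-EGFP (SD, n = 3), and Nr1i3 (CAR) at 33.8 ± 6.47 and 32.6 ± 2.04. Their log2 fold changes were -0.04 ± 0.10 and 0.11 ± 0.13, and that of Hnf4a was -0.23 ± 0.11 (edgeR adjusted p = 0.84, 0.629 and 0.19). These are RNA levels and say nothing of receptor activity.

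Electron partners of the P450 enzymes, 6 genes, held 0 calls in either direction by edgeR, with 2 higher and 0 lower at an unadjusted p under 0.05. DESeq2 called those 2 of 6 higher and limma-voom called 0. Por, which passes electrons to every microsomal P450, stood at 221 ± 23.4 FPKM in Ad-Dyrk1b and 269 ± 3.73 in Ad-EGFP (SD, n = 3), which is -0.18 ± 0.12 on the log2 scale (edgeR adjusted p = 0.369). The median of the list was -0.05. By edgeR 7.36% of all tested genes were called higher and 4.81% lower.

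Among other targets of PXR and CAR 8 of 23 rose and 1 fell, with a median log2 fold change of 0.41. The shares over all tested genes were 7.36% higher and 4.81% lower. Cyp2b10, the classical CAR target, rose by 1.18 ± 0.21 (edgeR adjusted p = 0.00774), from 70.8 ± 15.5 to 150 ± 34.9 FPKM. Cyp2c37 rose by 0.98 ± 0.13, the efflux pump gene Abcb1a by 0.77 ± 0.11 and the glutathione transferase gene Gsta2 by 0.77 ± 0.14 (edgeR adjusted p = 0.000521, 0.000764 and 0.00335). Cyp2c55 had -0.08 ± 0.18 (edgeR adjusted p = 0.804). Gadd45b, named because it was the only one lower, fell by 0.48 ± 0.13 (edgeR adjusted p = 0.0361).

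Female-biased liver genes outside the Cyp3a family held the highest share of calls among the 7 plotted lists. In all, 12 of 21 rose and 1 fell, with a median log2 fold change of 1.49, against 1.995 for the Cyp3a genes. Among all tested genes 7.36% were called higher and 4.81% lower. Cyp2b13 rose by 3.18 ± 0.14, the oxidase gene Hao2 by 3.19 ± 0.23, Cyp2c40 by 2.33 ± 0.18 and the membrane glycoprotein gene Prom1 by 2.24 ± 0.12 (SE; edgeR adjusted p = 1.07e-07, 1.84e-05, 3.81e-05 and 7.07e-07). Sult1e1, the estrogen sulfotransferase and the only one lower, fell by 1.05 ± 0.11 (edgeR adjusted p = 7.75e-05). Cux2, a female-specific regulator, had 0.60 ± 0.39 (edgeR adjusted p = 0.34). Of 16 male-biased genes tested, 6 rose and 1 fell, beside the same shares of all tested genes, with a median of 0.40. Elovl3, Cyp4a12b and the urinary protein gene Mup20 rose by 1.60 ± 0.21, 1.53 ± 0.23 and 1.07 ± 0.16, and the complement gene C6 fell by 0.85 ± 0.14 (edgeR adjusted p = 0.000572, 0.0013, 0.0012 and 0.00265).

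In the growth hormone axis, 15 genes, Ghr, the growth hormone receptor, fell by 0.51 ± 0.11 on the log2 scale (edgeR adjusted p = 0.0132). It was the only call by edgeR, which found 3 higher at an unadjusted p under 0.05. Over all tested genes edgeR called 7.36% higher and 4.81% lower, so 1 call among 15 genes is near those shares. DESeq2 called 2 higher and limma-voom 0. Stat5b, the signal transducer of the receptor, had 0.26 ± 0.13, and Bcl6, a repressor of female-biased genes, had -0.33 ± 0.17 (edgeR adjusted p = 0.199 and 0.227). Since Cyp3a16 is known from young liver, genes of fetal and neonatal liver were set beside it. Of 5 tested, Igf2 fell by 3.63 ± 0.33 and Afp by 0.63 ± 0.14 (edgeR adjusted p = 8.25e-05 and 0.0137), and 1 was higher at an unadjusted p under 0.05. By adjusted p, edgeR, DESeq2 and limma-voom each called 0 higher. Over the 6 libraries the log2 CPM of Cyp3a16 had a Pearson r of 0.991 with Cyp3a41b, 0.989 with Cyp3a41a and 0.984 with Cyp3a44. With the other members r ran from -0.047 (Cyp3a13) to 0.915 (Cyp3a59). These values include the difference between the groups.

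P450 genes of other families rose in 7 of 16 cases and fell in 1, with a median log2 fold change of 0.45. For all tested genes the shares were 7.36% higher and 4.81% lower. Cyp4a10 and Cyp4a14, fatty acid omega-hydroxylases, rose by 2.18 ± 0.15 and 1.12 ± 0.13, Cyp2e1 by 1.04 ± 0.16 and Cyp2a5 by 0.81 ± 0.14 (edgeR adjusted p = 3.02e-06, 0.000154, 0.00134 and 0.00299). Cyp39a1, an oxysterol hydroxylase named as the only one lower, fell by 0.41 ± 0.10 (edgeR adjusted p = 0.018).

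**Figure D5:**
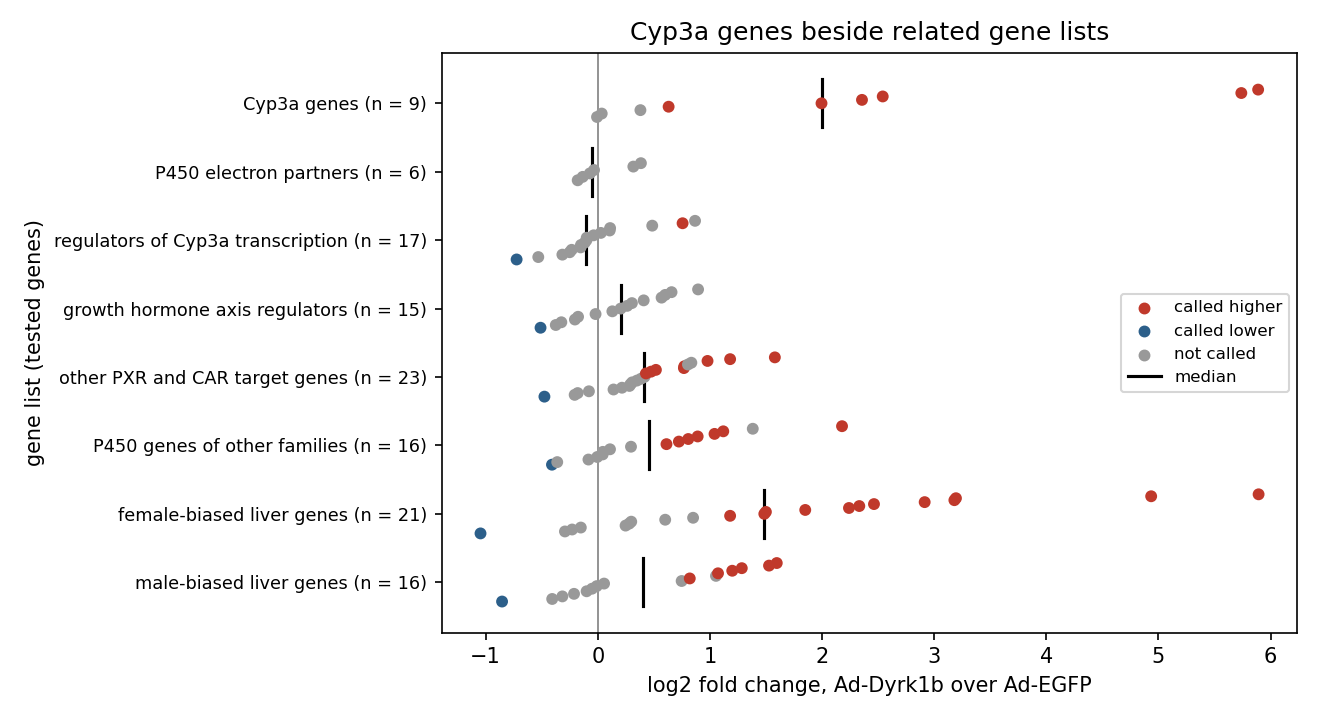
Log2 fold change, Ad-Dyrk1b over Ad-EGFP, of every tested gene in the Cyp3a family and in 7 related lists; each point is a gene, colour gives the edgeR call and the black bar the median. The medians of the Cyp3a genes (1.995) and the female-biased genes (1.49) lie to the right of the others.

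Markers of 10 cell types were measured beside these results. The 6 hepatocyte markers summed to 60260 to 79460 CPM in Ad-Dyrk1b and 73710 to 80170 in Ad-EGFP. Of 36 tested markers edgeR called 2, both higher: Spp1, a bile duct gene, and Gzmb, a gene of T and NK cells. At an unadjusted p under 0.05 edgeR had 10 markers higher and 1 lower. By adjusted p, 5 markers were higher and 1 lower with DESeq2, and 4 were higher with limma-voom. Over all tested genes edgeR called 7.36% higher and 4.81% lower. Bile duct markers, with 1 of 5 called, summed to 329 to 425 CPM in Ad-Dyrk1b and 199 to 237 in Ad-EGFP. Nearly all of this sum was Spp1, with 3359 to 7889 counts per library. Krt19, Krt7, Epcam and Sox9 had 21 to 176 counts and were not called, and Epcam had a log2 fold change of -0.14. T and NK cell markers, with 1 of 4 called, summed to 27.6 to 35.5 and 15.4 to 20.2. Kupffer cell markers summed to 671 to 854 against 393 to 639, and erythroid markers to 868 to 3812 against 521 to 839. Sinusoidal endothelial markers summed to 132 to 189 against 80.7 to 130. Stellate cell markers overlapped at 219 to 344 and 231 to 316, and neutrophil markers at 10.2 to 39.9 and 5.96 to 33.7. Enterocytes are another main site of CYP3A, and their markers, of which 2 of 5 were tested, summed to 94.6 to 126 and 78.5 to 96.7, with Sis at 0 in every library. Fabp2, with 1419 to 2424 counts per library, made up nearly all of that sum, and Vil1 had at most 17 counts. The 4 pancreatic markers stayed under 0.291 CPM in sum, with Cpa1 and Pnlip at 0. The part of cell makeup in the Cyp3a changes was not tested, and in whole liver fewer cells of a type and less RNA per cell cannot be told apart.

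The labels do not give the sex of the mice, which bears on female-biased genes. Over all 6 libraries the Y-linked genes Ddx3y, Eif2s3y, Kdm5d and Uty had 2, 1, 7 and 0 counts in total, and at most 3 in any library. No library of either group thus held more than a trace of the Y-linked RNA that male liver would carry. These genes were looked at after the values of the Cyp3a genes were seen, and Xist was not analysed here.

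As a description over 6 libraries in 2 groups, the genes whose log2 CPM followed the Cyp3a sum most closely were Ifnar1 (Pearson r = 0.996), Surf1 (0.996), Aldh9a1, Ttpa and Abca3 (each 0.994). With the sum of Cyp3a41a and Cyp3a41b they were Rybp (0.997), Card10 (0.993), Crlf2 (0.99), Gm4756 (0.988) and Ms4a8a (0.988). Of 11288 genes compared, 161 had an r of at least 0.95 with the family sum and 104 with the pair. The points share their libraries and the difference between the groups.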

How the data were processed

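RNA-seq gene counts were analysed as deposited: whole-number counts per gene, made by the authors with genome build mm10, per the submitters' processing notes, which also name DESeq2. No source used here names the aligner, counter, strand setting or annotation release. The authors also deposited FPKM per library, used for levels, and a log2 ratio, p-value and adjusted p-value per gene, printed only where the authors' deposited table is named.

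Counts were fitted in R 4.3.3 with edgeR 4.0.16 (TMM scaling, robust quasi-likelihood F-test, 3 against 3 libraries). Genes passed filterByExpr with a minimum count of 10 and a total of 15, which left 13201 of 22274 genes, and 5089 had no count. Adjustment was by Benjamini-Hochberg over all tested genes at 0.05. Intervals use the test's own degrees of freedom. The script was tested on simulated counts. Alternatives used DESeq2 1.42.0, limma 3.58.1, other scalings, no filter, log2(FPKM + 1 or 0.1), a replicate block and each library left out. Depth was 17326516 to 20024888 counts per library, and counting intervals cover counting error only.

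Positions and transcripts came from GENCODE M21, and upstream sequences from RefSeq (GRCm38.p6), where all 9 members matched by symbol. The 50 transcribed bases of each RefSeq window were left out. Identity is from global alignment. The members, the related lists and the tests were chosen with earlier results of these data known. Named beyond the members are up to 4 called genes with the smallest p in each list, some regulators fixed by name, the 3 nearest tested coding genes on each side, and the 5 genes most alike in pattern (mean of at least 1 FPKM).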

Additional observations from a re-analysis of the deposited data

How the results depend on the processing

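With 3 libraries a group the error of each fold change is wide, and for Cyp3a57 the low counts limit the depth. Over 16 alternatives 4 to 7 Cyp3a genes were called higher and 0 lower. Leaving out each library in turn gave 4 to 6 called higher and 0 lower. Cyp3a44, Cyp3a57 and Cyp3a59 were called in each of these alternatives, Cyp3a41b in each but the sum with Cyp3a41a, where it has no row of its own and the pair was called, and Cyp3a11 by DESeq2 alone. Cyp3a57 had a log2 fold change of 0.55 on log2(FPKM + 1), a scale that understates the change of low genes. The ratio of the family sums was 1.35 to 1.51 with a library left out and 2.36 without Cyp3a11, which holds most of the sum.

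Cyp3a13 and Cyp3a25, which lie near 0, changed sign. With a library left out Cyp3a13 ranged from -0.0734 to 0.0382. It was above 0 in 3 of these fits: 0.0382 with replicate 1 of Ad-Dyrk1b removed, 0.012 with replicate 3 removed, and 0.0047 when Ad-EGFP replicate 2 was removed. Cyp3a25 ranged from -0.0445 to 0.183, below 0 with replicate 2 of either group removed (-0.0185 in Ad-Dyrk1b, -0.024 in Ad-EGFP) and with Ad-EGFP replicate 3 removed. It was -0.0485 with total-count library sizes, -0.0457 on log2(FPKM + 1) and -0.0458 on log2(FPKM + 0.1). The cause was not tested.

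Same-numbered libraries had correlated deviations of 0.024, 0.172 and 0.108, and not every library correlated best with its own number, so the numbers were not taken as pairs. With the replicate block 6 Cyp3a genes were called higher and 0 lower, the same 6 genes, and over all genes 1109 were higher and 774 lower. Without a filter 1019 and 686 of 17185 genes were called.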
